A study of Homo sapiens with 32 samples.

Results

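The change of translational efficiency (TE) from 0 to 15 h of serum was measured for every gene with enough counts in both assays, 8736 of the 19023 genes in the table. TE is the number of ribosome footprints on a gene relative to its mRNA, and its log2 change is that of footprints less that of RNA. The cells were human RPE-1, an hTERT-immortalised line from retinal pigment epithelium, wild type by its label. They had been starved of serum for 18 h and were collected before serum (0 h) or after 5, 10 or 15 h with it. Each time had 4 biological replicates of RNA-seq (total RNA after ribosomal RNA depletion) and 4 of Ribo-seq (fragments protected by ribosomes), 32 libraries in all. The comparison of 15 h with 0 h used 16 of them, 4 per assay and time, and the 5 h and 10 h libraries entered the same fit. All groups shared the line, the genotype and the starvation. No group stayed starved to 15 h, so an effect of serum and an effect of time in culture cannot be told apart. In bulk samples, a change in the share of cells that use a gene and a change in each cell cannot be told apart.

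Footprints of a gene depend on how much of its mRNA there is and on how many ribosomes each mRNA carries, and TE separates the second from the first. The best known regulated class in proliferating cells is the 5TOP mRNAs, which code for ribosomal proteins and translation factors and start with a cytosine followed by a run of pyrimidines. The kinase complex mTORC1, which growth factors and amino acids activate, promotes their translation, and the cap-binding protein LARP1 holds them untranslated when mTORC1 is inactive. The question here was which mRNAs gained or lost ribosomes, beyond their change in abundance, between starved cells and cells 15 h into serum.

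RNA-seq libraries held 595851 to 1107470 counts and footprint libraries 2851423 to 9901322, so the RNA side limits the precision of TE. Within a group, the correlation of log CPM between replicates ran from 0.888 to 0.975 in RNA and from 0.989 to 0.997 in footprints, where CPM is edgeR's library-scaled count unit. Of 12 pigment epithelium markers 3 were tested (MITF, OTX2 and MERTK), none with a called TE change, and of 9 blood cell markers 1 was tested (CD68, not called). Counts are relative to the other genes of an assay, with no spike-in. Unless stated otherwise, changes below are log2 values with standard errors from the edgeR quasi-likelihood fit, n = 4 libraries per group. Called means an adjusted p under 0.05 (Benjamini-Hochberg over the 8736 genes, 2-sided). RNA and footprint changes come from their own fits with their own scaling, so their difference stood above the TE change by a median of 0.14.

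Translational efficiency changed in both directions, and the large changes were mostly rises. Of 8736 genes 958 were called (11%), 614 with higher TE at 15 h (7.03%) and 344 with lower TE (3.94%). Of the called genes, 373 changed at least 2-fold (4.27% of those tested), 303 of them higher (3.47%) and 70 lower (0.801%). With a spread estimated for each assay, limma-voom called 749 genes (8.57%), 542 higher and 207 lower (6.20% and 2.37%), and 716 genes were called by both fits (8.20%), 521 higher and 195 lower (5.96% and 2.23%). The count of lower genes moved with single libraries. It was 518 without RNA 0 h replicate 1, 187 without RNA 0 h replicate 3, 189, 592 and 176 without RNA 15 h replicates 1, 3 and 4, and 577 and 207 without footprint 0 h replicates 1 and 2. In the separate fits, RNA was called in 4463 of 8775 genes (50.9%, 25.4% in each direction) and footprints in 8736 of 10959 (79.7%, 40.1% higher and 39.6% lower). The share of genes with TE called higher rose with RNA level. It was 2.29% in the fifth with the least RNA and 15.8% in the fifth with the most. Gene lists below are set beside all genes tested and were not matched for RNA level.

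The called genes reached their TE change in different ways. In 237 of the 614 higher genes footprints rose while RNA was not called, with medians of 1.09 for footprints and -0.12 for RNA. In 147 RNA and footprints both rose, with medians of 1.26 and 2.57. In 132 RNA fell while footprints rose (medians -0.59 and 0.63), and these crossed genes had the highest median TE change of the 5 classes, 1.35. In 53 the RNA fell and footprints were not called in that direction, and in 45 footprints fell less than the RNA did (medians -0.60 and -1.56). Among the 344 lower genes, 146 lost footprints with RNA not called, 78 gained footprints by less than they gained RNA, 49 fell in both and 48 gained RNA with no called gain of footprints. Another 6 gained RNA and lost footprints, and 17 were in none of these classes. RNA, footprint and TE changes come from the same libraries, so these counts describe the calls and are not separate evidence for them.

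**Figure D1:**
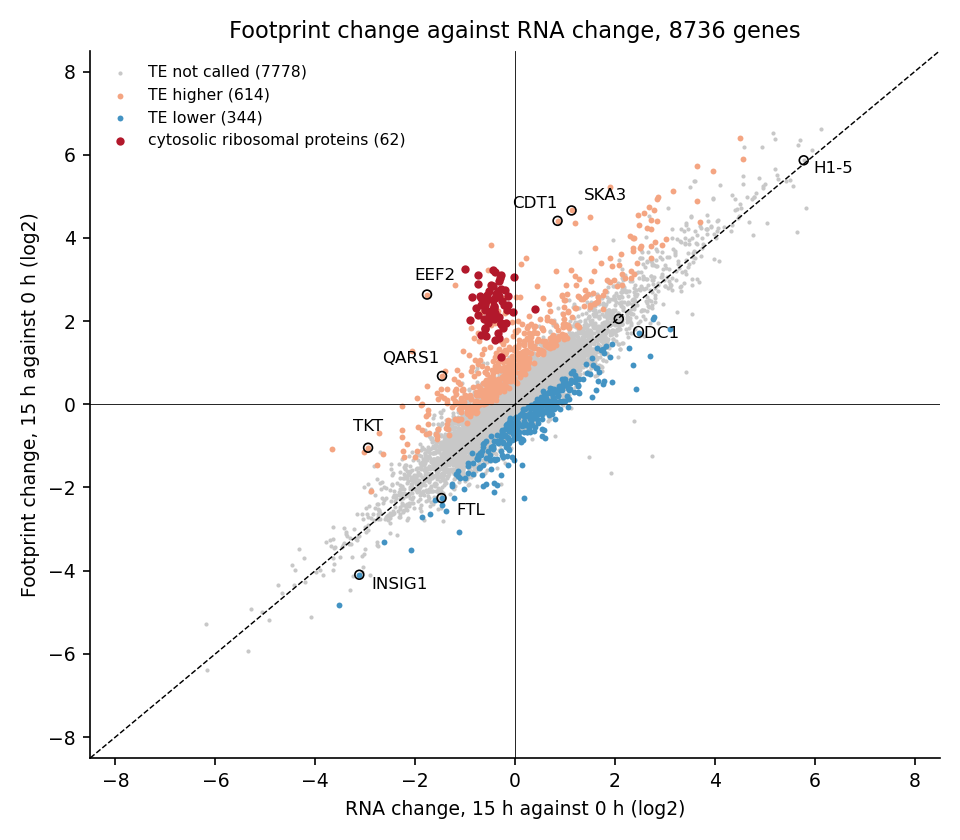
Footprint log2 change against RNA log2 change, 15 h against 0 h, for the 8736 genes tested, 1 point a gene, with TE higher and TE lower genes coloured. The ribosomal protein genes lie to the left of 0 on the RNA axis or near it and far above 0 on the footprint axis, as EEF2 does at -1.76 and 2.64.

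The annotated 5′ ends of 17 genes whose TE results are given below are shown because most rises of over 4-fold came from genes that start with C and a pyrimidine run. Each line holds 30 bases of RefSeq GRCh38.p14, 6 before the annotated start and 24 from it, 5′ to 3′ on the gene's strand. Capitals mark a C followed by at least 5 bases that are each C or T, where the C lies within 5 bases of the start on either side. Lines without capitals hold no such run. The GAPDH line comes from a start inside the annotated gene, which begins at base 6534517 of chromosome 12. It therefore does not show the outermost 5′ end of GAPDH, which was not searched.
EEF2 (chr19:3985440-3985469, minus strand): agcgttCTCTTCCgccgtcgtcgccgccat
EEF1A1 (chr6:73521009-73521038, minus strand): aacgttCTTTTTCgcaacgggtttgccgcc
RPS18 (chr6:33272069-33272098, plus strand): tccgCTCTCTCTTCCacaggaggcctacac
RPL13A (chr19:49487602-49487631, plus strand): ctCCTCCTTTTCCaagcggctgccgaagat
RPL26 (chr17:8383170-8383199, minus strand): gtagttCTCTTCCCTTTTgcggccatcacc
TPT1 (chr13:45341160-45341189, minus strand): gtcggCCTTTTCCgcccgctcccccctccc
SLC25A6 (chrX:1392090-1392119, minus strand): ctccgtCCTTTCggtccaggcggcggcagg
EIF3D (chr22:36529143-36529172, minus strand): tgtttCCTCTTTTCCTggtttctcaagagt
FBL (chr19:39846356-39846385, minus strand): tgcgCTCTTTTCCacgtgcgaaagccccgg
CDT1 (chr16:88803783-88803812, plus strand): ctCTTCCTCCCTTCCTTCTTTCCTTgcttt
EEF1G (chr11:62573868-62573897, minus strand): cggcttactttgcggcagcgccgagaaccc
RPL9 (chr4:39458899-39458928, minus strand): gacgacagacgttctttctttgctgcgtct
QARS1 (chr3:49104734-49104763, minus strand): aagtttcttttagtttccggtgtctctgca
GAPDH (chr12:6535258-6535287, plus strand): atccctgtccggatgctgcgcctgcggtag
SKA3 (chr13:21176529-21176558, minus strand): agattcaaactagtggcgggaggctgtgag
INSIG1 (chr7:155297872-155297901, plus strand): ggcgctgcggccgtcccgggccgtgactcc
FTL (chr19:48965303-48965332, plus strand): cccctcgcagttcggcggtcccgcgggtct

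Such a start was annotated in 217 of the 514 genes with higher TE that had a RefSeq start sequence (42.2%). Only the gene's own strand was searched, a match at any annotated start counted, and 7261 of the 8736 genes tested had a sequence. The share was 16.8% of those 7261, 11.9% of genes with lower TE (32 of 269), 15% of genes with no called change (973 of 6478) and 13.7% of all 27305 genes in the RefSeq table. It was 51.2% where TE rose at least 2-fold (128 of 250) and 74% where it rose at least 4-fold (54 of 73). Among the ribosomal protein genes 43 of 49 had the start (87.8%), and among the other known 5TOP genes 19 of 24 (79.2%). With both lists taken out, 157 of 445 genes with higher TE had it (35.3%). Read the other way, TE was called higher in 17.8% of the 1222 genes with the start and in 4.92% of the 6039 without it. EEF1G and RPL9 had large rises without a match, so these letters in this window do not mark every gene of the class. Annotated starts are not measured starts of these cells, and a match describes letters only.

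**Figure D2:**
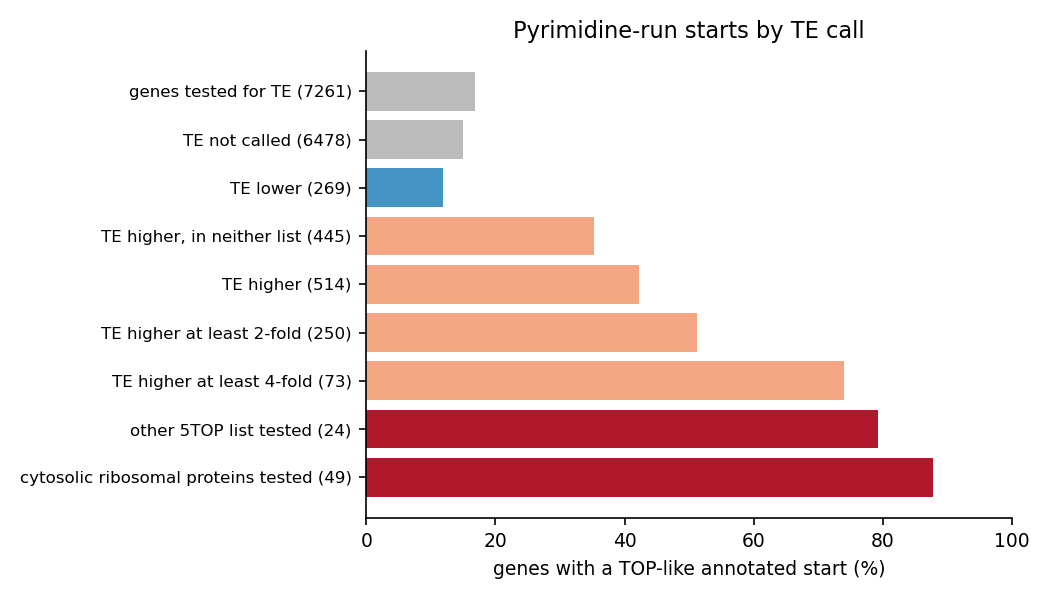
Share of genes, in percent, with a C followed by at least 5 pyrimidines within 5 bases of an annotated start, by TE result and gene list. The share is 42.2% in genes with higher TE, 74% where the rise was at least 4-fold and 11.9% in genes with lower TE.

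Relative to other genes, ribosomal protein mRNAs gained ribosomes at 15 h while their RNA counts fell slightly. RNA was called lower in 34 of the 62 tested and higher in 0. TE rose in all 62 of 80 listed cytosolic ribosomal protein genes that passed the count filter, against 7.03% of all genes tested. Their median TE change was 2.69, beside -0.04 over all genes, and came from a median footprint change of 2.36 and a median RNA change of -0.43. Limma-voom called the same number and DESeq2 61. All 25 small subunit genes (median 2.81) and all 37 large subunit genes (median 2.58) rose. The lowest rise was that of FAU, which codes for RPS30 fused to a ubiquitin-like protein, at 1.27 ± 0.14. The highest estimate was that of RPL21 at 4.05 ± 0.70, on a mean of 0.147 ± 0.178 footprint CPM (SD) at 0 h. Both were singled out after their values were seen, as the ends of the range. Reads of ribosomal protein genes can be shared with many pseudogenes, and how shared reads were counted is not given in the sources used here.

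RPS18, a small subunit protein at the head of the 40S particle, had RNA of 949, 588, 539 and 661 CPM in replicates 1 to 4 at 0 h and 542, 426, 536 and 541 CPM at 15 h. Its footprints were 3.79, 7.02, 8.99 and 9.87 CPM at 0 h and 57.2, 63.5, 72.9 and 78.6 CPM at 15 h. RNA of the 2 times overlapped, while every 15 h footprint library stood above every 0 h one. Its TE rose 11.7-fold (3.55 ± 0.23, adjusted p = 3.2e-15). RPL13A, a large subunit protein, had RNA of 617, 536, 558 and 658 CPM at 0 h and 356, 332, 430.1 and 328 CPM at 15 h. Its footprints were 5.37, 9.29, 7.55 and 9.69 CPM, then 81.2, 57.3, 66.0 and 65.3 CPM. The groups did not overlap in either assay and moved in opposite directions, and TE rose 13.4-fold (3.75 ± 0.19, adjusted p = 1.89e-18). RPS2 (3.50 ± 0.16), RPL37A (3.44 ± 0.16), RPL28 (3.29 ± 0.36), RPL26 (3.24 ± 0.35), RPL9 (3.21 ± 0.25) and RPL32 (3.21 ± 0.21) followed, with RPL28 and RPL32 overlapping the genes UBE2S and CAND2 on the genome.

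RNA CPM summed over the 62 ribosomal protein genes was 7.28, 5.6, 5.85 and 6.39% of the nominal CPM total at 0 h. At 15 h it was 5.27, 4.03, 5.08 and 4.84%. CPM were scaled by TMM factors, so the CPM of a library need not add up to that total. These percentages are therefore not shares of reads. The factors were 1.04 to 1.09 in RNA at 0 h and 0.902 to 0.945 at 15 h. In footprints they were 1.12 to 1.14 at 0 h and 0.940 to 0.947 at 15 h. Shares of reads would differ from these sums by amounts that vary with time and assay. Summed footprint CPM of the same genes went from 0.453, 0.468, 0.449 and 0.419% to 2.02, 1.96, 2.01 and 2.04% of that total. The footprint sum was thus far below the RNA sum in every library, at both times, and 15 h footprint libraries lay close together. TE was called higher in all 62 at 5 h and in 61 at 10 h, with medians of 2.52 and 2.62. These contrasts share the 0 h libraries with that of 15 h. Between 5 h and 15 h the median TE change of the list was 0.13.

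**Figure D3:**
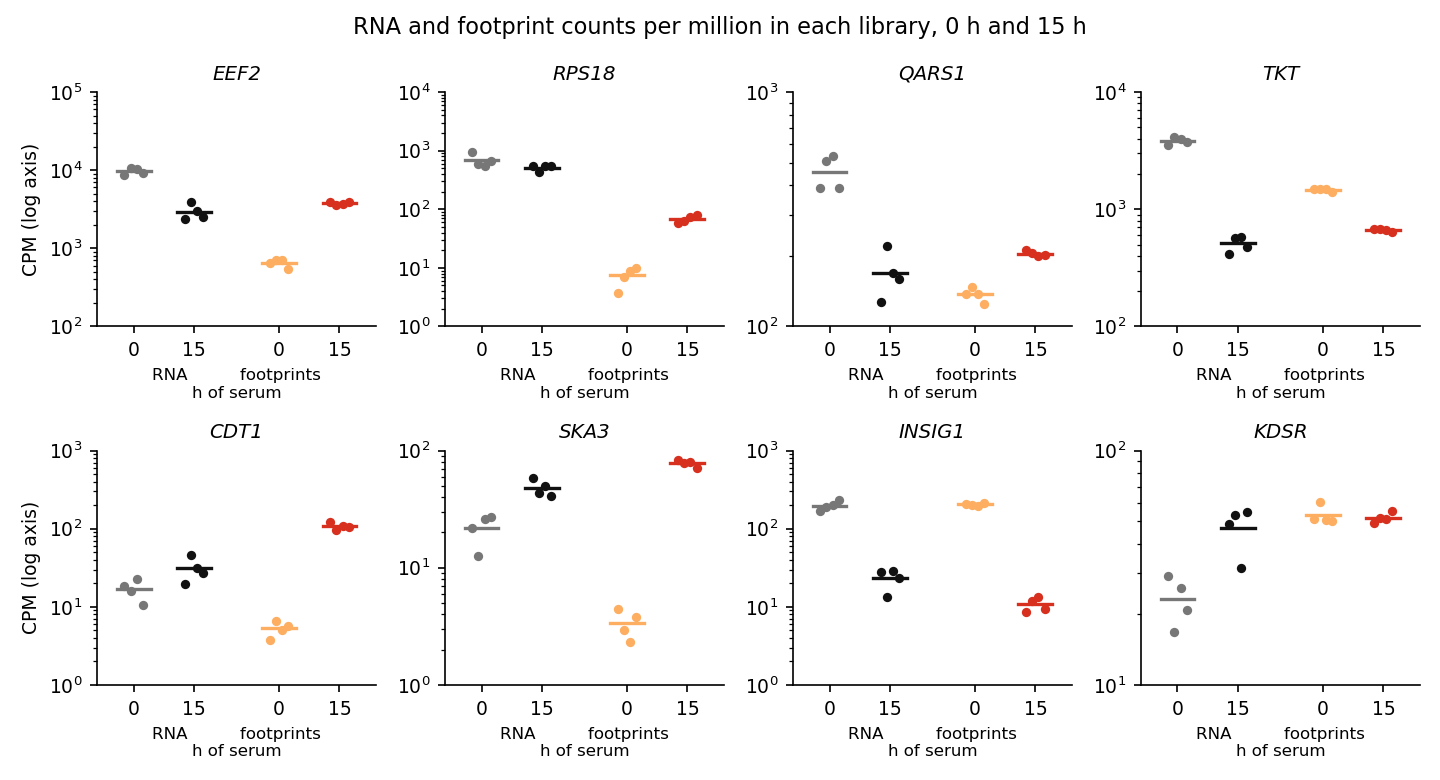
CPM of 8 genes in each RNA-seq and Ribo-seq library at 0 h and 15 h on a log axis, points for the 4 libraries of a group and a line for their mean. In EEF2 and RPS18 footprints rise by 6.23-fold and 9.34-fold while RNA does not rise, and in TKT the RNA falls further than the footprints.

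Translation factors and other genes long known as 5TOP mRNAs rose with the ribosomal proteins. TE was higher in 26 of the 31 tested (83.9%, against 7.03% of all genes tested; 33 were listed), with a median TE change of 1.59. Limma-voom called the same number. EEF2, the elongation factor that moves the ribosome along by a codon, had the largest rise of all genes tested. Its RNA was 8772, 10530.1, 10296 and 9175 CPM at 0 h and 2368, 3869, 2985 and 2480.5 CPM at 15 h. Its footprints were 657, 701, 701 and 547 CPM at 0 h and 3966, 3553, 3704 and 3877 CPM at 15 h. RNA fell and footprints rose with no overlap in either assay, and TE rose 19.2-fold (4.26 ± 0.24, adjusted p = 7.54e-16). EEF1A1, which brings aminoacyl-tRNA to the ribosome, had overlapping RNA of 2675, 1639, 1411 and 1819 CPM against 1360.3, 1045, 1364 and 1499 CPM. Its footprints went from 14.2, 10.9, 9.35 and 14.2 CPM to 59.9, 66.9, 61.2 and 74.4 CPM, without overlap, and TE rose 7.79-fold (2.96 ± 0.24). EEF1A1 has many pseudogenes, so its level is uncertain.

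EEF1G, another subunit of the elongation factor 1 complex, rose by 3.64 ± 0.14 and had the smallest adjusted p of all genes (3.17e-21). The poly(A)-binding protein PABPC1 rose by 2.87 ± 0.25, the growth-related TPT1 by 2.64 ± 0.16 and EIF4B, a helper of the initiation helicase, by 2.29 ± 0.17. The 5 members not called were LARP1 (-0.32 ± 0.36), UBB (0.06 ± 0.12), CCNI (0.17 ± 0.18), COX7C (0.22 ± 0.19) and EIF3A (0.36 ± 0.18), given because they complete the list. Summed over the list, RNA CPM was 3.47 ± 0.102% of the nominal CPM total at 0 h (SD) and 2.46 ± 0.0620% at 15 h. Summed footprint CPM of the list was 0.746 ± 0.0456% at 0 h and 2.49 ± 0.0631% at 15 h. As above, these sums are not shares of reads.

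Of 31 initiation factors outside that list, 10 rose (32.3%, against 7.03% of all genes tested) and 21 did not pass the test, with a median TE change of 0.15. EIF3D, a cap-binding subunit of the initiation complex eIF3, had overlapping RNA of 463, 398, 384 and 407 CPM at 0 h and 456, 409, 487 and 426 CPM at 15 h. Its footprints were 97.7, 102, 103 and 102 CPM at 0 h and 270.0, 279, 272 and 284 CPM at 15 h. Footprints did not overlap, and TE rose 2.54-fold (1.34 ± 0.12, adjusted p = 2.19e-11). EIF2A (1.23 ± 0.31), the helicase EIF4A1 (1.15 ± 0.11) and EIF3G (1.15 ± 0.14) also rose. Among 22 cytosolic aminoacyl-tRNA synthetase genes 4 rose (18.2%) and 18 did not pass (median 0.22), led by QARS1. The share was 7.03% of all genes tested and 15.8% of the fifth with the most RNA.

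Several metabolic and housekeeping genes crossed, with less mRNA and more footprints at 15 h. SLC25A6, an ADP/ATP carrier of the mitochondrial inner membrane, had RNA of 462, 605, 588 and 479 CPM at 0 h and 192, 282, 261 and 214 CPM at 15 h. Its footprints were 66.4, 66.6, 71.4 and 55.6 CPM, then 477, 419, 417 and 437 CPM. Neither assay overlapped, and its TE rise of 15.2-fold (3.92 ± 0.20, adjusted p = 2.22e-18) was the largest after EEF2 among the genes named by rule. SLC25A6 lies in a region shared by the sex chromosomes, so its reads have more than 1 possible place. QARS1, the glutaminyl-tRNA synthetase, went from 389, 508, 535 and 391 CPM to 127, 220.2, 169 and 159 CPM in RNA. Its footprints went from 138, 148, 138 and 124 CPM to 212, 205, 199 and 201 CPM, with no overlap, and TE rose 4.01-fold (SE 0.18 on the log2 scale, adjusted p = 6.34e-11).

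GAPDH, the glycolytic enzyme often used as a reference gene, fell from 5299, 5661, 5715 and 5446 CPM to 3031, 3264, 3573 and 3172 CPM in RNA. Its footprints rose from 1363, 1334, 1375 and 1273 CPM to 2762, 2397, 2555 and 2649.9 CPM. The 2 assays moved in opposite directions without overlap, and TE rose 3.29-fold (1.72 ± 0.12, adjusted p = 4.06e-14). Its mRNA has processed pseudogenes that could share reads. VIM, which codes for the intermediate filament vimentin, rose in TE by 2.22 ± 0.15 with RNA at -0.40 ± 0.13. ACTB, the other usual reference gene, was not called (0.10 ± 0.27), while the near-identical ACTG1 rose by 1.47 ± 0.26; reads of those 2 can be shared.

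In other genes the rise of TE went with a fall of mRNA that footprints did not follow in full. TKT, transketolase of the pentose phosphate pathway, had RNA of 3555, 4093, 3938 and 3763 CPM at 0 h and 419, 571, 578 and 475 CPM at 15 h, a 7.69-fold fall. Its footprints fell 2.06-fold, from 1496, 1493, 1474 and 1390.2 CPM to 674, 673, 660.0 and 634 CPM. All 15 h libraries were below all 0 h libraries in both assays, and TE rose 3.39-fold (1.76 ± 0.18, adjusted p = 1.24e-09). The homeobox gene SIX3 (TE 1.76 ± 0.35, RNA -3.02 ± 0.34) and the p53 target CCNG1 (TE 1.25 ± 0.24, RNA -1.94 ± 0.23) had the same pattern. IGBP1, which binds protein phosphatase 2A subunits, rose in TE by 1.43 ± 0.15 with RNA at -1.42 ± 0.14 and footprints not called at 0.14 ± 0.07. MRPL45, a protein of the mitochondrial ribosome, was like it, at 1.28 ± 0.22 in TE, -1.36 ± 0.22 in RNA and 0.04 ± 0.08 in footprints.

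Other growth-related lists are set beside the 7.03% of all genes tested that rose, a share not matched for RNA level. In the fifth of genes with the most RNA it was 15.8%. Of 64 mitochondrial ribosomal proteins 7 rose (10.9%, near that background) and 57 did not pass (median 0.17), with MRPS27 at 1.21 ± 0.12; without RNA 0 h replicate 3, 12 were called. Of 43 ribosome biogenesis factors 7 rose (16.3%) and 36 did not pass (median 0.10), while 37 of the 43 rose in RNA. That count was 4 without RNA 0 h replicate 2, RNA 15 h replicate 3 or footprint 0 h replicate 4, and 11 without RNA 15 h replicate 2. FBL, the methyltransferase of box C/D snoRNPs, stood out with RNA of 307, 281, 253 and 236 CPM at 0 h and 266, 280.0, 329 and 330.4 CPM at 15 h. Its footprints went from 89.1, 84.1, 80.4 and 76.2 CPM to 296, 285, 298 and 293 CPM. Its RNA overlapped and its footprints did not, and TE rose 3.19-fold (1.67 ± 0.17, adjusted p = 7.52e-10). BOP1 (1.04 ± 0.28) and PES1 (0.97 ± 0.16), partners in large subunit assembly, also rose.

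Of 64 nuclear-encoded respiratory chain genes 10 rose (15.6%, against 7.03% of all genes and 15.8% of the fifth with the most RNA). The other 54 did not pass (median 0.25), and COX5A was at 0.97 ± 0.17 and NDUFB11 at 0.95 ± 0.13. The count was 6 without RNA 0 h replicate 1 or footprint 0 h replicate 4, and 17 without RNA 15 h replicate 1 or with DESeq2. Of 29 proteasome subunits 6 rose (20.7%) and 23 did not pass (median 0.16), with the catalytic PSMB5 at 0.98 ± 0.16. Of 19 cytosolic chaperones 5 rose (26.3%) and 14 did not pass (median 0.18), with HSPA8 at 1.22 ± 0.16, HSPD1 at 1.08 ± 0.17 and HSP90AB1 at 0.96 ± 0.17. That count was 3 without RNA 0 h replicate 1, RNA 15 h replicate 3 or footprint 0 h replicates 1 or 4.

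**Figure D4:**
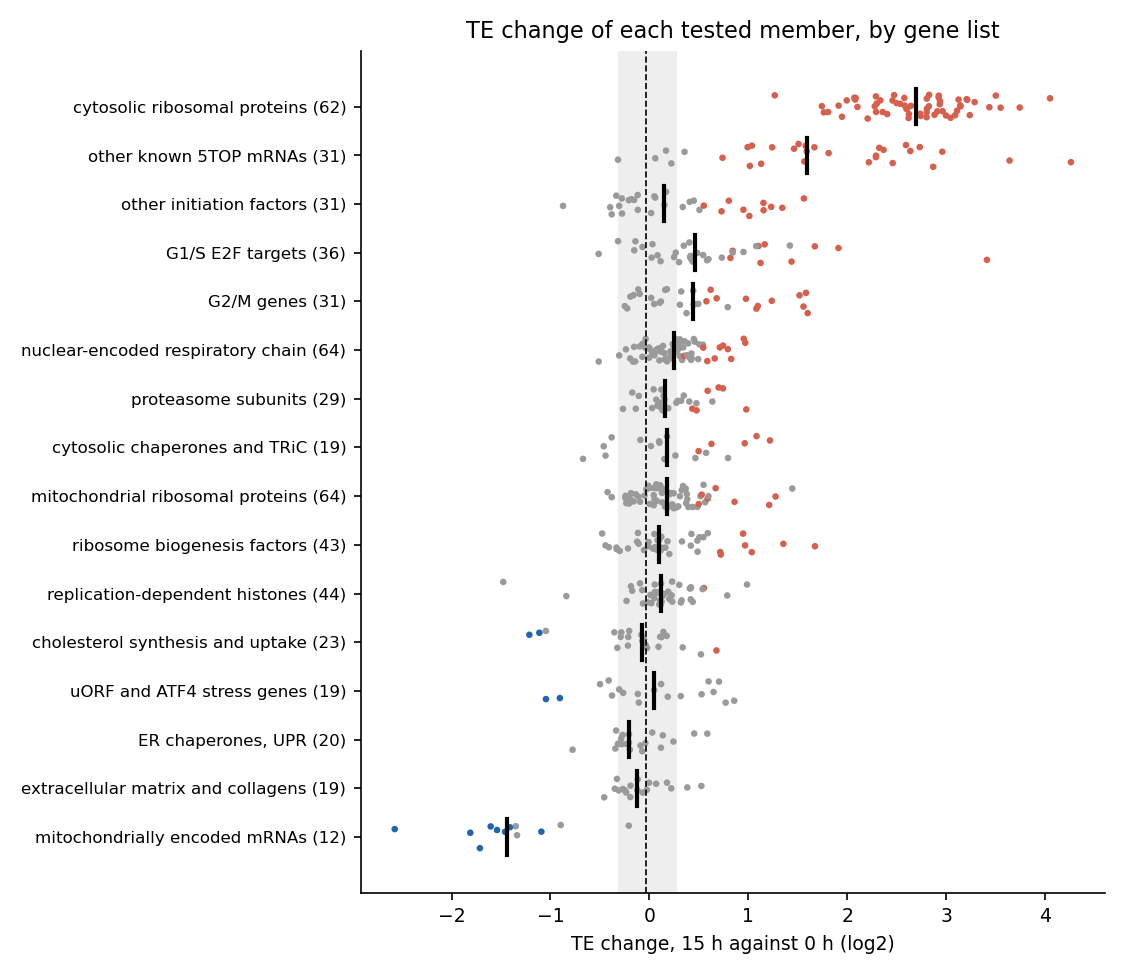
TE log2 change, 15 h against 0 h, for the members of 16 gene lists, 1 point a gene (red higher, blue lower, grey not called), with a black bar at the list's median, a grey band for the quartiles of all genes and a dashed line at their median of -0.04. The ribosomal protein list, with a median of 2.69, and the other 5TOP list, with 1.59, lie far above the band, the G1/S and G2/M medians of 0.46 and 0.44 just above it, and mitochondrially encoded mRNAs, with -1.43, below it.

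Cell cycle genes gained mRNA and, in part, ribosomes per mRNA. All 36 G1/S E2F targets tested rose in RNA and in footprints, and TE rose in 9 (25%, against 7.03% of all genes) and did not pass the test in 27, with a median TE change of 0.46. CDT1, which licenses replication origins, had RNA of 18.2, 15.8, 23 and 10.4 CPM at 0 h and 19.4, 46.4, 31.5 and 27.3 CPM at 15 h. Its footprints were 3.79, 6.57, 5.03 and 5.71 CPM at 0 h and 122, 97.4, 107 and 106 CPM at 15 h. RNA of the 2 times overlapped and footprints stood apart by a wide margin, with TE rising 10.7-fold (3.41 ± 0.38, adjusted p = 9.02e-09). CDT1 has the longest pyrimidine run of the starts printed. RRM2, a subunit of ribonucleotide reductase, rose by 1.91 ± 0.39, the origin-binding ORC1 by 1.67 ± 0.38 and the primase PRIM1 by 1.44 ± 0.37.

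Of 31 G2/M genes 11 rose in TE (35.5%, against 7.03% of all genes tested) and 20 did not pass (median 0.44). Limma-voom called 8 of them higher, against 6.20% of all genes tested. MKI67, the source of the Ki-67 proliferation antigen, had RNA of 21.9, 26.3, 14.4 and 22.4 CPM at 0 h and 109, 155, 106 and 64.0 CPM at 15 h. Its footprints were 127, 82.7, 116 and 98.0 CPM, then 1571, 1786, 1525 and 1594 CPM. Both rose without overlap, footprints by more, and TE rose 3.03-fold (1.6 ± 0.31, adjusted p = 0.00033). CDC25B, a phosphatase that activates CDK1, had overlapping RNA of 24.3, 35.8, 38.8 and 26.9 CPM against 27, 42.5, 34.1 and 26.2 CPM. Its footprints went from 53.7, 43.5, 52.9 and 50.4 CPM to 156, 172, 153 and 139 CPM, and TE rose by 1.58 ± 0.24. UBE2C, the ubiquitin-conjugating enzyme of the anaphase-promoting complex, rose by 1.56 ± 0.23, and the mitotic kinase AURKA by 1.24 ± 0.21. AURKA fell outside the naming rule and was singled out after its value was seen.

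SKA3, part of the complex that ties kinetochores to microtubules, had the largest rise among the mitotic genes named here. Its RNA was 21.9, 12.6, 25.9 and 26.9 CPM at 0 h and 58.3, 43.5, 49.8 and 40.9 CPM at 15 h. Its footprints were 4.43, 2.95, 2.34 and 3.81 CPM at 0 h and 83.5, 78.4, 79.2 and 70.9 CPM at 15 h. Neither assay overlapped, and a 2.19-fold rise of RNA stood beside a 25.3-fold rise of footprints (TE 3.37 ± 0.34, adjusted p = 7.07e-10). MND1 (3.15 ± 0.44) and DNA2 (8.02-fold), both of DNA recombination or repair, and FANCB (2.84 ± 0.39) of the Fanconi anaemia pathway rose with them. The mitotic kinase gene HASPIN rose by 3.14 ± 0.42, but it lies inside ITGAE, and the strand setting of the counting is not given in the sources used here.

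Not every gene of growth and replication moved in TE. Of 44 replication-dependent histone genes all rose in RNA, by a median of 4.04, and in footprints, by 4.38. In TE 1 was called higher (H2AC8, 0.55 ± 0.17), 2.27% against 7.03% of all genes tested. The median TE change was 0.12. The H2AC8 call was lost without RNA 0 h replicate 1 (adjusted p = 0.128), RNA 15 h replicate 3 (0.0742), footprint 0 h replicates 1, 3 or 4 (0.0683, 0.0810 and 0.141) or footprint 15 h replicate 1 (0.0912). Summed RNA CPM of the histone genes was 0.746 ± 0.0234% of the nominal CPM total at 0 h (SD) and 9.47 ± 0.746% at 15 h. Their summed footprint CPM was 0.367 ± 0.0159% and 4.58 ± 0.226%. These sums of scaled CPM are not shares of reads. ODC1, the first enzyme of polyamine synthesis, went from 856, 722, 696 and 755 CPM to 3361, 2801, 3409 and 3480.0 CPM in RNA. Its footprints went from 132, 118, 125 and 121 CPM to 501, 447, 454 and 511 CPM. The rises were near each other, 4.22-fold and 4.15-fold, and TE was not called (-0.16 ± 0.13). Neither were the replication clamp PCNA (-0.15 ± 0.21), MYC (-0.03 ± 0.22) and the linker histone H1-5 (-0.06 ± 0.24).

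The genes with lower TE that were named came from several pathways. SC5D, an enzyme of late cholesterol synthesis, had RNA of 45, 37.9, 21.6 and 49.2 CPM at 0 h and 28.1, 28, 24.9 and 31.5 CPM at 15 h. Its footprints were 186, 200.3, 189 and 221 CPM, then 56.3, 65.7, 65.5 and 63.4 CPM. RNA overlapped and footprints fell without overlap, and TE fell 2.32-fold (-1.21 ± 0.24, adjusted p = 0.000579). INSIG1, which retains the sterol sensor SCAP in the endoplasmic reticulum, fell in RNA from 169, 189, 198 and 233 CPM to 28.1, 13.5, 28.8 and 23.1 CPM. Its footprints fell further, from 206, 201, 194 and 216 CPM to 8.69, 11.8, 13.2 and 9.28 CPM, and TE fell 2.16-fold (-1.11 ± 0.25, adjusted p = 0.00251). These were the 2 falls among 23 cholesterol genes (8.7%), too few to set apart from the 3.94% of all genes tested that fell. MVD rose by the edgeR fit, but not by limma-voom or without RNA 0 h replicate 3, RNA 15 h replicates 1 or 4, footprint 0 h replicates 1, 3 or 4 or footprint 15 h replicate 1. The list's median TE change was -0.07, beside RNA and footprint medians of -1.96 and -1.99. HMGCS1, which commits acetyl groups to sterol synthesis, was not called (-0.22 ± 0.19).

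FTL, the ferritin light chain, whose mRNA carries an iron-responsive element near its start, went from 620.3, 654, 659 and 594 CPM to 229, 240.5, 259.6 and 203 CPM in RNA. Its footprints went from 65.4, 60.0, 65.6 and 43.1 CPM to 13.5, 10.2, 12.8 and 9.53 CPM. Both fell without overlap, footprints by 4.77-fold against 2.77-fold, and TE fell by 0.92 on the log2 scale (SE 0.21, adjusted p = 0.00241). FTL was the 1 gene called among 8 tested mRNAs with such elements (12.5%, against 3.94% of all genes tested called lower). The iron importer TFRC, with elements in its 3′ end, was not called (0.02 ± 0.19). SAT1, which acetylates polyamines for export, fell in TE by 1.53 on the log2 scale (SE 0.22, adjusted p = 1.54e-06). It was the 1 called gene of 7 in the polyamine list (14.3%). Single calls in lists this short are too few to set apart from the share of all genes. SAT1 had too few footprints for the naming rule and was singled out after its value was seen.

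IL6ST, the gp130 receptor subunit shared by the interleukin-6 family, had RNA of 325, 317, 171 and 322 CPM at 0 h and 409, 314, 286 and 362 CPM at 15 h. Its footprints were 580.0, 608, 614 and 601 CPM at 0 h and 322, 366, 361 and 363 CPM at 15 h. RNA overlapped, with replicate 3 low at 0 h, and footprints fell in every library, with TE lower by 1.04 on the log2 scale (-1.04 ± 0.22, adjusted p = 0.00137). KDSR, an enzyme of sphingolipid synthesis, went the other way in RNA, from 29.2, 16.9, 25.9 and 20.9 CPM to 48.6, 53.1, 31.5 and 54.5 CPM. Its footprints overlapped, at 51.2, 60.3, 50.7 and 50.2 CPM and then 49.2, 51.3, 51.1 and 55.4 CPM, and TE fell 2.12-fold (-1.08 ± 0.22, adjusted p = 0.000678). The general transcription factor subunit GTF2A1 had the same pattern (TE -1.08 ± 0.21, RNA 1.09 ± 0.24, footprints 0.13 ± 0.07). The acetyltransferase KAT6B (-1.15 ± 0.26) and the endocytic adaptor ITSN2 (-1.12 ± 0.26) also fell. GTF2A1 overlaps an antisense gene and ITSN2 pseudogenes.

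Mitochondrially encoded mRNAs, which mitochondrial ribosomes translate, lost footprints. Of 12 tested 8 were called lower in TE by edgeR (66.7%, against 3.94% of all genes tested) and 10 by DESeq2. Limma-voom with a spread for each assay called only 1, too few to set apart from its 2.37% of all genes tested. All 12 fell in footprints (median -1.91), and the median RNA and TE changes were -0.39 and -1.43. MT-ND4, a complex I subunit, had RNA of 75.4, 82.2, 61.8 and 74.6 CPM at 0 h and 48.6, 54.1, 59.0 and 73.4 CPM at 15 h. Its footprints were 331, 261, 187 and 202 CPM at 0 h and 76.6, 64.0, 51.9 and 46.2 CPM at 15 h. RNA overlapped and footprints did not, though replicates 1 and 2 were above 3 and 4 at both times. TE fell 3.28-fold (-1.71 ± 0.31, adjusted p = 0.000167 by edgeR and 0.0403 by limma-voom). Summed over the 12, footprint CPM went from 0.841, 0.732, 0.479 and 0.548% of the nominal CPM total to 0.218, 0.203, 0.143 and 0.138%. These sums, too, are of scaled CPM and are not shares of reads. These protected fragments come from another ribosome than those of the other lists.

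Further lists held 3 or fewer called genes each, too few to set apart from the 7.03% of all genes called higher and 3.94% called lower. Among 19 genes of the ATF4 and upstream open reading frame list 2 fell (10.5%) and 17 did not pass, IBTK (-0.91 ± 0.23) and SLC7A11 (-1.05 ± 0.33). SLC7A11 was not called by limma-voom (adjusted p = 0.203) or without any 1 of RNA 0 h replicates 1 to 4 and RNA 15 h replicates 2 and 4 (adjusted p = 0.056 to 0.16 by edgeR). ATF4 itself was not called (0.86 ± 0.31, adjusted p = 0.066 by edgeR and 0.0393 by limma-voom). Of 16 selenoproteins edgeR called 2 higher (12.5%) and 1 lower (6.25%). Limma-voom called 0 of them higher, and 0 remained higher without RNA 15 h replicate 3, footprint 0 h replicates 1, 3 or 4 or footprint 15 h replicate 1. The lower call was lost without RNA 0 h replicate 3, RNA 15 h replicate 4 or footprint 0 h replicate 2. Of 16 immediate-early genes 1 was called higher and 1 lower (6.25% each), and of 20 glycolysis and hypoxia genes 2 higher (10%) and 1 lower (5%). Both of these lower calls were lost with limma-voom and without some single libraries, RNA 0 h replicate 4 and RNA 15 h replicates 2 and 4 among them. Of 19 SRF and YAP targets 3 rose (15.8%) and of 6 epithelial and mesenchymal markers 2 rose (33.3%), the latter 1 without RNA 0 h replicate 1 or footprint 0 h replicates 3 or 4. Of 11 fatty acid synthesis and 17 autophagy genes 1 rose in each (9.09% and 5.88%), near the background; without some single libraries these counts were 2. The 1 call among 11 cytokine genes (9.09%) was IL6, which passed the count filter through its 5 h libraries and is given no fold here. Its footprints were 0.0449 ± 0.0899 CPM (SD) at 0 h and 0.870 ± 0.400 CPM at 15 h, and the call was lost without any 1 of 12 of the 16 libraries. Leaving out 1 library moved the counts of 3 or fewer in these lists by at most 2 genes. EdgeR called 0 of 14 quiescence genes, 0 of 17 p53 targets, 0 of 20 endoplasmic reticulum chaperones and 0 of 19 matrix genes. At an unadjusted p under 0.05 there were 2, 3, 1 and 2 in these lists, and DESeq2 called 1, 1, 0 and 0. The quiescence genes were 11 of 14 lower in RNA, with a median of -2.12. None of 10 non-coding 5TOP host RNAs was tested.

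The same contrast was also made at earlier times. TE was called in 565 genes at 5 h against 0 h (6.47%), 361 higher and 204 lower (4.13% and 2.34%), and in 632 at 10 h (7.23%), 475 higher and 157 lower (5.44% and 1.80%). Of the 614 genes higher at 15 h, 297 were called higher at 5 h and 415 at 10 h, and their median TE changes were 0.68, 0.85 and 0.99 at the 3 times. Of the 344 lower genes 71 and 81 were called lower at 5 h and 10 h, with medians of -0.48, -0.48 and -0.76. All 3 contrasts share the 0 h libraries, and the 15 h medians are those of genes chosen at 15 h. A gene not called at a time need not have been unchanged then. In the direct contrast of 15 h with 5 h, 57 of the 614 were called further up and 1 back down. Of the 344, 9 were called further down and 1 back up. The G1/S list had a median of 0.51 at 5 h. The G2/M list had a median of -0.31 at 5 h and 0.46 at 10 h.

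**Figure D5:**
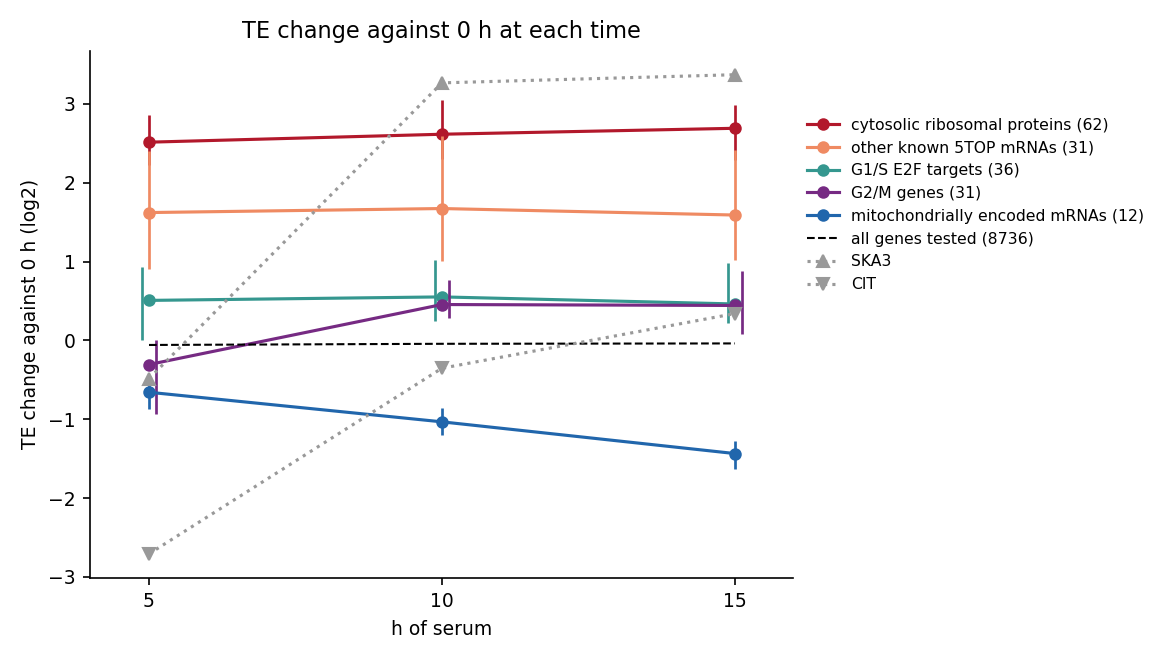
Median TE log2 change against 0 h at 5, 10 and 15 h for 5 gene lists, with bars for the quartiles of the members, and the values of SKA3 and CIT. Ribosomal proteins stand at 2.52, 2.62 and 2.69, and G2/M genes go from -0.31 to 0.44.

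Tested directly, 15 h differed from 5 h in 113 genes (1.29%), 90 higher (1.03%) and 23 lower (0.263%), and limma-voom called 79 (0.904%), 63 higher (0.721%) and 16 lower (0.183%). The count was 71 without RNA 5 h replicate 1 (52 higher). The lower count was 14 without RNA 15 h replicate 2, 14, 15 and 14 without footprint 5 h replicates 1, 2 and 3, and 13 and 12 without footprint 15 h replicates 2 and 3. Of the 31 G2/M genes 7 rose, beside the 1.03% of all genes tested. SKA3 rose by 3.86 ± 0.42, with RNA at 11.4 ± 3.81 CPM at 5 h (SD) and 26.5 ± 10.6 at 10 h, and footprints at 1.34 ± 0.447 and 40.6 ± 3.82 CPM. CIT, the citron kinase of cytokinesis, rose by 3.05 ± 0.34 (adjusted p = 2.2e-07) after a fall to 5 h. Its footprints were 131, 109, 127 and 129.7 CPM at 0 h, 4.35 ± 0.573 CPM at 5 h (SD), 57.3 ± 9.14 CPM at 10 h and 248, 287, 266 and 263 CPM at 15 h. Its RNA was 55.9, 55.8, 54.6 and 59.7 CPM at 0 h, 12.5 ± 3.81 CPM at 5 h, 33.5 ± 6.52 CPM at 10 h and 99.3, 126, 72.1 and 81.8 CPM at 15 h. CIT was thus lowest at 5 h in both assays, and at 15 h its TE was not called against 0 h (0.34, with -2.71 at 5 h).

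CEP128 (3.65 ± 0.40), a centriole protein, the DNA glycosylase NEIL3 (2.89 ± 0.35), the kinesin KIF14 (2.78 ± 0.41), FANCB (2.70 ± 0.37) and CDC25B (2.36 ± 0.40) also rose from 5 h to 15 h. Genes named for this contrast passed the floor of 20 CPM on the mean of their 0 h and 15 h libraries. Their level at 5 h was not part of that floor, so the sizes of their rises can rest on few counts at 5 h. FBL rose by 0.76 ± 0.17 (adjusted p = 0.00967), with footprints at 135 ± 8.14 CPM at 5 h (SD) and 256 ± 16.5 CPM at 10 h. Among the falls, NOP56, a partner of FBL in box C/D snoRNPs, had RNA of 153, 152, 137 and 161 CPM at 0 h, 364 ± 34.1 CPM at 5 h (SD) and 517, 476, 504 and 473 CPM at 15 h. Its footprints were 66.1, 62.5, 69.8 and 61.6 CPM at 0 h, 247 ± 12.2 CPM at 5 h and 222, 202, 201 and 218 CPM at 15 h. RNA was still higher at 15 h than at 5 h while footprints were not, and TE fell by 0.66 on the log2 scale (SE 0.12, adjusted p = 0.000659). The lipase MGLL (-1.01 ± 0.23) and the cytoskeletal linker DST (-0.92 ± 0.17) fell further. Between 10 h and 15 h edgeR called 0 of 8736 genes. An unadjusted p under 0.05 was found in 542 (6.2%), the smallest adjusted p was 0.0787, limma-voom called 0 and DESeq2 2. Without RNA 10 h replicate 1 there were 4 calls, and without RNA 15 h replicate 3 there was 1.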

How the data were processed

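RNA-seq and Ribo-seq were compared in 32 libraries of RPE-1 cells, and all were used. The deposited table gives counts, whole numbers of reads per gene and library, which the authors did not normalise. Per the submitters' processing notes, reads were handled with STAR 2.5.4a and featureCounts 1.5.1 on GRCh38. The annotation, the strand setting and the handling of shared reads and molecular identifiers are not given in the sources used here. Per the labels, both assays used a small RNA library kit. Counted lengths were multiples of 3 in 96.5% of genes, and are taken as coding lengths.

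TMM factors were taken within each assay, and genes passing edgeR's filterByExpr by time group in both assays were kept. The TE test was the interaction of assay and time in an edgeR quasi-likelihood fit (edgeR 4.0.16 in R 4.3.3, robust) over 8 assay-by-time groups and 32 libraries. RNA and footprints also had their own fits, over 8775 and 10959 genes. Standard errors are the log2 change divided by the square root of F. The biological coefficient of variation differed between RNA (0.185) and footprints (0.0547), with 0.102 jointly, so limma-voom with a spread per assay (limma 3.58.1) was run beside it, and DESeq2 1.42.0 as a further alternative. Other alternatives were the scaling, the filter, the libraries fitted, the replicate block and each library left out. The fit was tested on simulated data with known changes.

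The genes named were the 12 largest rises and falls called by edgeR and limma-voom with at least 20 CPM in both assays, up to 5 in each class of RNA and footprint calls, up to 6 per direction for 15 h against 5 h, up to 4 per list, and fixed genes; exceptions are stated. The 32 gene lists and these choices were made with earlier results of these data known. The floor of 20 CPM was set on the mean of the 0 h and 15 h libraries, also for genes named for 15 h against 5 h. Replicate numbers were not used as pairs. Labels call the replicates biological. Library totals were 745415 ± 112329 (SD, n = 4) in RNA at 0 h and 1004622 ± 117162 at 15 h, and 4302366 ± 1103301 and 8258036 ± 2422493 in footprints. Precision followed depth: the median standard error of TE was 0.384 in the fifth of genes with the least RNA and 0.169 in the fifth with the most.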

Additional observations from a re-analysis of the deposited data

Results flagged for a closer look

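In 4 of 100 groups of 4 libraries, 1 library stood apart from the other 3 by Dixon's criterion, and chance flags about 1 in 20. The groups checked were those of 23 genes with values by library and the library totals of each assay and time. All 4 were groups of gene values. RPS18 RNA at 15 h was 426 CPM in replicate 2 and 536 to 542 CPM in the others. KDSR footprints at 0 h were 60.3 CPM in replicate 2 and 50.2 to 51.2 CPM in the others. IL6ST RNA at 0 h was 171 CPM in replicate 3 and 317 to 325 CPM in the others. IL6ST footprints at 15 h were 322 CPM in replicate 1 and 361 to 366 CPM in the others.

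The TE change against 0 h differed between 5 h and 15 h, by the contrast of these times in the joint edgeR fit, for 5 genes with values by library. The difference was 0.76 for FBL, 3.86 for SKA3, 3.05 for CIT, 2.36 for CDC25B and -0.66 for NOP56.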

How the results depend on the processing

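Calls of higher TE at 15 h were steadier than calls of lower TE, of which there were 207 with limma-voom, 204 with a filter of 10 counts in total, 668 with the replicate block and 560 with limma-voom and the replicate block together, the last chosen after seeing the data. The replicate block gave 1542 calls in all. For 15 h against 5 h, DESeq2 gave 241 (166 higher and 75 lower), the replicate block 313 (218 and 95) and limma-voom with the block 238 (175 and 63). For 15 h against 10 h, DESeq2 gave 2 (0 and 2), the block 8 (1 and 7) and limma-voom with the block 5 (0 and 5). Deviations of same-numbered RNA libraries at 0 h and 15 h correlated at r = 0.52, 0.45, 0.15 and 0.31, against at most 0.40, -0.10, 0.57 and 0.33 with another number, so 2 of 4 correlated best with their own. RNA at 5 h and 15 h gave 0.23, 0.62, -0.03 and 0.21, against at most 0.11, 0.05, 0.26 and 0.19 with another number. RNA at 10 h and 15 h gave 0.60, 0.67, 0.29 and 0.03, against at most 0.41, 0.08, 0.06 and 0.10. Footprints at 0 h and 15 h were at 0.22, 0.02, 0.06 and 0.05. With the block, 4 genes of the ATF4 list (0 without it) and 1 endoplasmic reticulum chaperone were called higher, and 1 such chaperone lower. The filter also moved the split of higher and lower calls at 15 h, 614 and 344 in the main result, to 702 and 204 with 10 counts in total and to 535 and 397 with a mean of 30. Leaving out 1 library gave 790 to 1165 calls (450 to 799 higher, 176 to 592 lower), 71 to 148 against 5 h (52 to 133, 12 to 29), 0 to 4 against 10 h (lower 0 to 4), 4001 to 4373 in RNA (2020 to 2449, 1684 to 2114) and 8572 to 8780 in footprints (4309 to 4398, 4248 to 4382). The share of higher genes with the pyrimidine start was 28% with C exactly at the start, 53.7% with at least 4 and 30% with at least 7 pyrimidines after it. None of the named genes' 104 called changes reversed under any alternative run. Of these, 8 lost their call with limma-voom, 9 without RNA 0 h replicate 1 and 10 without footprint 0 h replicate 4. Depth limits low genes: TE was called higher in 2.29% of the fifth with the least RNA and 15.8% of the fifth with the most.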
